A study of Drosophila melanogaster with 2 samples.

Results

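The genes described here are named as cuticular protein genes of the CPR group and were followed in pooled Drosophila melanogaster embryos of 0 to 16 h. They were chosen by name, as the genes whose symbol begins with Cpr and a digit, Ccp84, Lcp, Pcp, Edg or Acp65. Earlier results of these data were known when they were chosen. Whether each carries the CPR consensus, Edg91 and Lcp9 included, was not checked. The name rule found 100 gene identifiers among the 17301 of the files. Of these, 97 were annotated as protein-coding and 2 as pseudogenes (Lcp1Psi and Lcp65APsi), and the last, Lcp1Psi-RA, is a transcript of Lcp1Psi listed under an identifier of its own.

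CPR proteins carry the Rebers and Riddiford consensus, a stretch that binds chitin, and together with chitin fibres they form the procuticle of insects. Epidermal cells secrete a new cuticle before each moult, and different CPR genes serve the larval, pupal and adult cuticle. The first larval cuticle is laid down late in embryogenesis, so a pool that ends at 16 h holds only its onset. The names of several genes record where the protein was first found: Lcp for larval cuticle protein, Pcp for pupal cuticle protein, Acp65Aa for an adult cuticle protein, and Edg for ecdysone-dependent genes of the moulting cycle.

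Each group was 1 pooled collection of embryos reared at 25 °C and sequenced as 1 library of poly(A) RNA. In both, the GAL4 insertion P{en2.4-GAL4}e22c, a driver widely used for the embryonic epidermis, was brought in by parents carrying y1 w*, the reporter P{tGPH}4 and the balancer TM3, Ser1. The library labelled knockdown came from a cross to y1 v1 flies with the RNA interference transgene P{TRiP.JF02125}attP2, directed against the LIM-homeodomain gene Lim3. The control library came from a cross to y1 v1 flies with P{y+t7.7=CaryP}attP2, at the same landing site. Embryos with and without the balancer, of both sexes and of every age in the window were pooled, and no difference below has a replicate check.

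Lim3 reached 18.5 FPKM in the library labelled knockdown but 5.81 FPKM in the control library, against the direction of the label, so each library is called by its label. Why Lim3 was higher in the library labelled knockdown was not tested, nor was whether the labels were exchanged. If they were, every direction given below would turn. FPKM is fragments per kilobase of transcript, scaled to the library's mapped fragments. Unless stated otherwise, paired values give the library labelled knockdown first and the control library after it. The smallest values implied about 32600000 and 22000000 fragments. Late embryos were present in both pools: the late epidermal and tracheal markers Osi6, Osi7, Osi14, dyl and neo summed to 7412 and 6882 FPKM. The 5 maternal markers (bcd, nos, osk, exu, swa) summed to 186 and 189 FPKM, and the 5 early zygotic markers (ftz, eve, Kr, kni, gt) to 67.2 and 68.1 FPKM. Of the 4 adult male and ovary markers found, none reached 1 FPKM in either library, and they summed to 1.46 and 1.40 FPKM. In such whole-embryo pools, fewer cells of a type and less RNA per cell cannot be told apart.

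A member was called on at 1 FPKM or more in both libraries and off below 1 FPKM in both. By this rule 61 of the 100 members were on, 33 were off and 6 crossed the threshold between the libraries. The share on, 61.0%, lay beside 58.3% of all genes in the files. Of the 97 protein-coding members 61 were on (62.9%), beside 68.9% of all protein-coding genes. The group thus did not stand out by the number of genes on, but its levels ran from values listed at 0 to over 1000 FPKM.

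**Figure D1:**
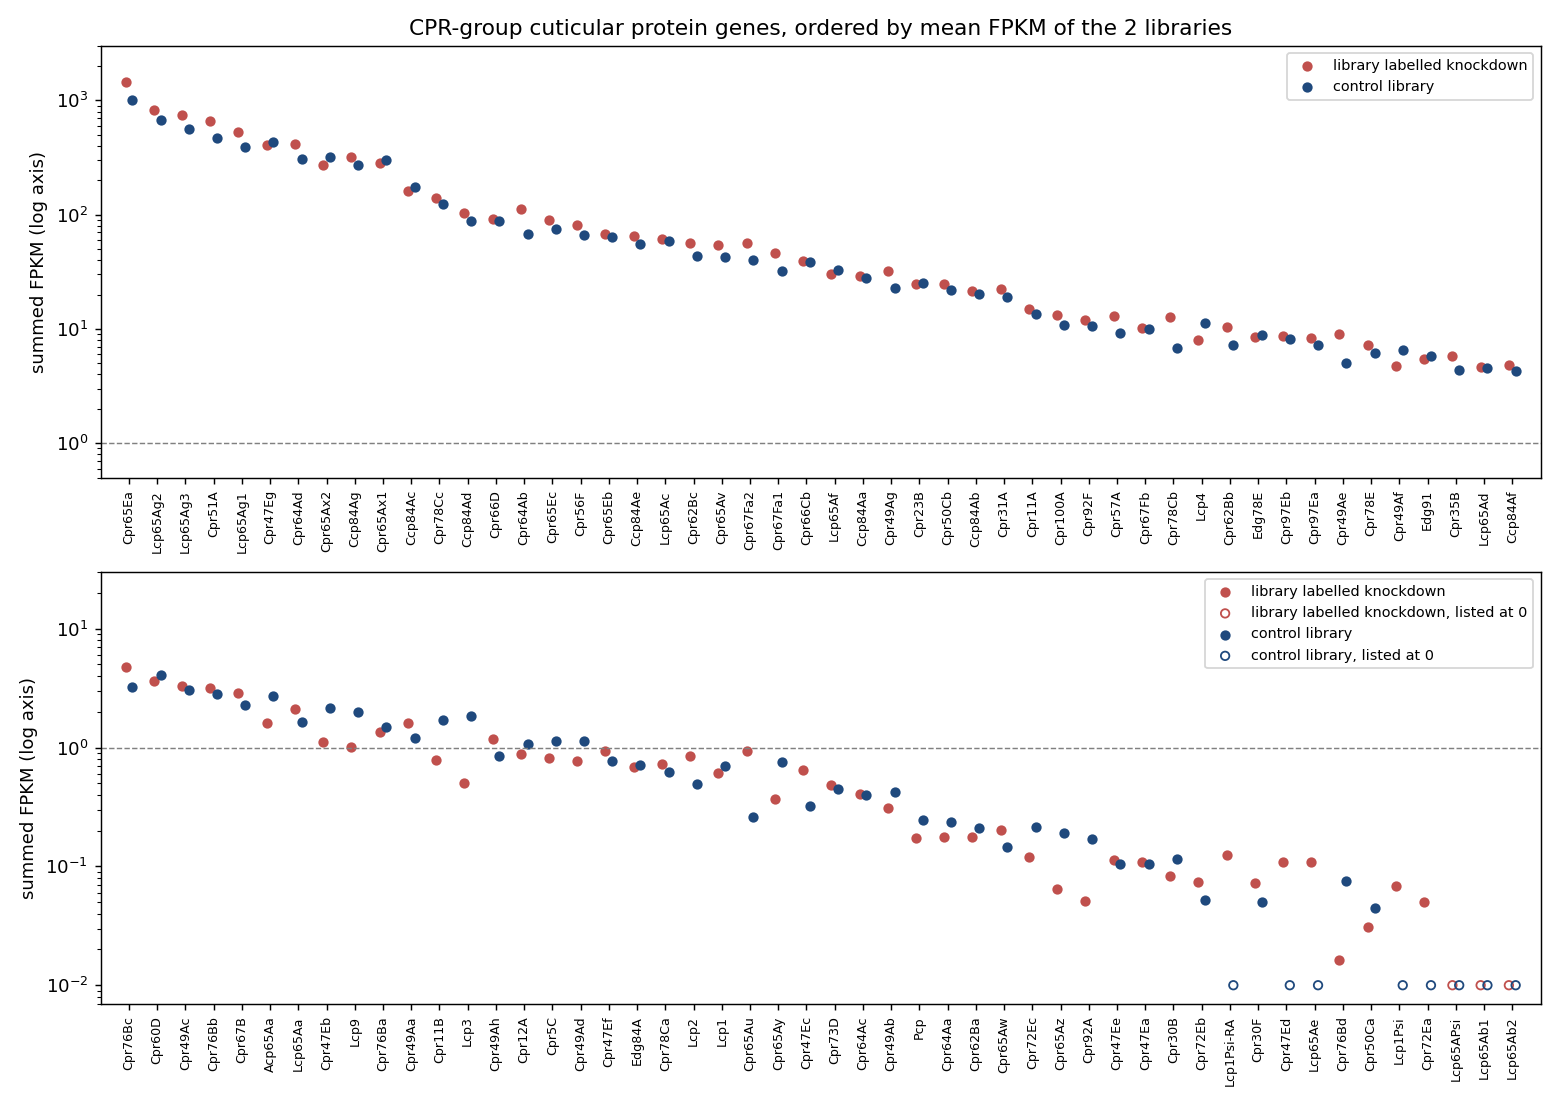
Summed FPKM (log axis) of the 100 members in the library labelled knockdown (red) and the control library (blue), ordered by the mean of both, with a dashed line at 1 FPKM and open symbols, drawn at 0.01, for values listed at 0. Levels fall steeply over the first 12 members, from 1450 FPKM for Cpr65Ea to 140 FPKM for Cpr78Cc in the library labelled knockdown.

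A few genes supplied most of the CPR transcript level. All members summed to 7528 and 6136 FPKM, which was 0.671% and 0.450% of the FPKM sum over all genes. The 12 members with the highest mean held 82.6% and 81.9% of these sums, the highest 5 held 56.0% and 50.3%, and Cpr65Ea alone held 19.3% and 16.3%. At a mean of 100 FPKM or more stood 12 of 100 members, beside 7.05% of all genes. A further 25 members had a mean of 10 to 100 FPKM, 27 of 1 to 10 FPKM and 36 under 1 FPKM.

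Cpr65Ea, which encodes a CPR protein of the group at 65E, was the highest member at 1450 and 1000.2 FPKM. Ranked by mean over all genes it stood at 131. Cpr51A, on 2R and in no cluster, was at 667 and 466 FPKM. Cpr47Eg was at 410 and 432 FPKM, and Cpr64Ad at 415 and 305 FPKM. In these genes each library's value rested on at least 3999 estimated fragments, so counting error was small beside the level.

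Among the highest 12 were also 5 genes of cluster 65A. By mean, Lcp65Ag2 and Lcp65Ag3 came directly after Cpr65Ea, above Cpr51A. Lcp65Ag2, Lcp65Ag3 and Lcp65Ag1, neighbouring genes for small larval cuticle proteins whose names mark them as copies, were at 824, 741 and 531 FPKM in the first library and at 668, 563 and 390 FPKM in the control. Cpr65Ax1 was at 284 and 304 FPKM and its named copy Cpr65Ax2 at 275 and 322 FPKM. Fragments of near-identical copies may have been divided between them by the authors' software, and no sequence was used here to measure their identity, so the values of single copies are uncertain. The remaining genes among the highest 12 were Ccp84Ag at 318 and 274 FPKM, Ccp84Ac at 163 and 175 FPKM, and Cpr78Cc at 140 and 124 FPKM.

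Most members lie in tandem, and on and off genes were mixed within the tandem groups. Neighbours no more than 20 kb apart formed 8 clusters of 4 or more members, which held 60 of the 100. In the coordinates of the files, the largest lies on 3L from 6123486 to 6154689 (cluster 65A, 19 members in 31.2 kb). The members in this cluster held 37.3% and 39.0% of the group's FPKM. In it 11 genes were on and 8 off, a share on of 57.9%, beside 58.3% of all genes in the files. Over the clusters the share on ran from 16.7% in Lcp1-Lcp4 to 87.5% in 84A, to be set beside the same 58.3%.

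Within cluster 65A the level changed abruptly from gene to gene. Cpr65Au, at 0.930 and 0.260 FPKM, lies between Lcp65Ag3 and Lcp65Ag2, of which the lower value was 563 FPKM. Lcp65Ae, at 0.109 FPKM and listed at 0, lies between Lcp65Af (30.3 and 32.6 FPKM) and Cpr65Av (54.6 and 42.7 FPKM). Lcp65Ac was at 60.7 and 58.8 FPKM, whereas its neighbour Lcp65Ab2 was listed at 0 in both libraries. The duplicate Lcp65Ab1 and the pseudogene Lcp65APsi were also listed at 0 in both, and each Lcp65Ab gene is next to a Cpr65Ax copy, of which the lowest value was 275 FPKM. An exact 0 for a gene named as a copy can be a failed estimate, so the off call of these 3 rests on a listed 0 alone.

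The end of cluster 65A with the highest coordinates was low. Lcp65Aa was at 2.11 and 1.65 FPKM and Acp65Aa, the adult cuticle gene, at 1.62 and 2.70 FPKM. Cpr65Ay stood at 0.369 and 0.762 FPKM and Cpr65Az at 0.0642 and 0.189 FPKM.

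Cluster 84A was on throughout except at its edge. It lies on 3R from 2510173 to 2530625, in the Antennapedia complex between the Hox genes lab and pb, and holds the 7 Ccp84 genes and Edg84A. All 7 Ccp84 genes were on, with Ccp84Ag the highest and Ccp84Af, at 4.85 and 4.26 FPKM, the lowest. Ccp84Ad was at 104 and 87.7 FPKM and Ccp84Ae at 64.5 and 55.2 FPKM, and the neighbouring pair Ccp84Ab and Ccp84Aa at 21.7 and 20.1 FPKM and 28.8 and 28.0 FPKM, respectively. Edg84A, a prepupal cuticle gene and known target of the nuclear receptor FTZ-F1, was off at 0.688 and 0.718 FPKM, beside its neighbour Ccp84Ag at 318 and 274 FPKM.

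Clusters 47E and Lcp1-Lcp4 had the smallest shares of members on. In cluster 47E (2R from 7137873 to 7165950) Cpr47Eg and Cpr47Eb were on, and 5 of 7 genes were off. Cpr47Eg held nearly all of the cluster's level, since Cpr47Eb was at 1.11 and 2.13 FPKM and the lowest, Cpr47Ed, at 0.110 FPKM and listed at 0. The Lcp1-Lcp4 cluster (2R from 4317620 to 4326000), which encodes major cuticle proteins of the third larval instar, summed to 10.1 and 14.2 FPKM over 6 identifiers. Lcp4 was on at 7.94 and 11.2 FPKM, Lcp3 crossed the threshold at 0.507 and 1.84 FPKM, and Lcp1 (0.614 and 0.706 FPKM) and Lcp2 (0.845 and 0.497 FPKM) were off. The pseudogene Lcp1Psi was at 0.0678 FPKM and listed at 0.

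**Figure D2:**
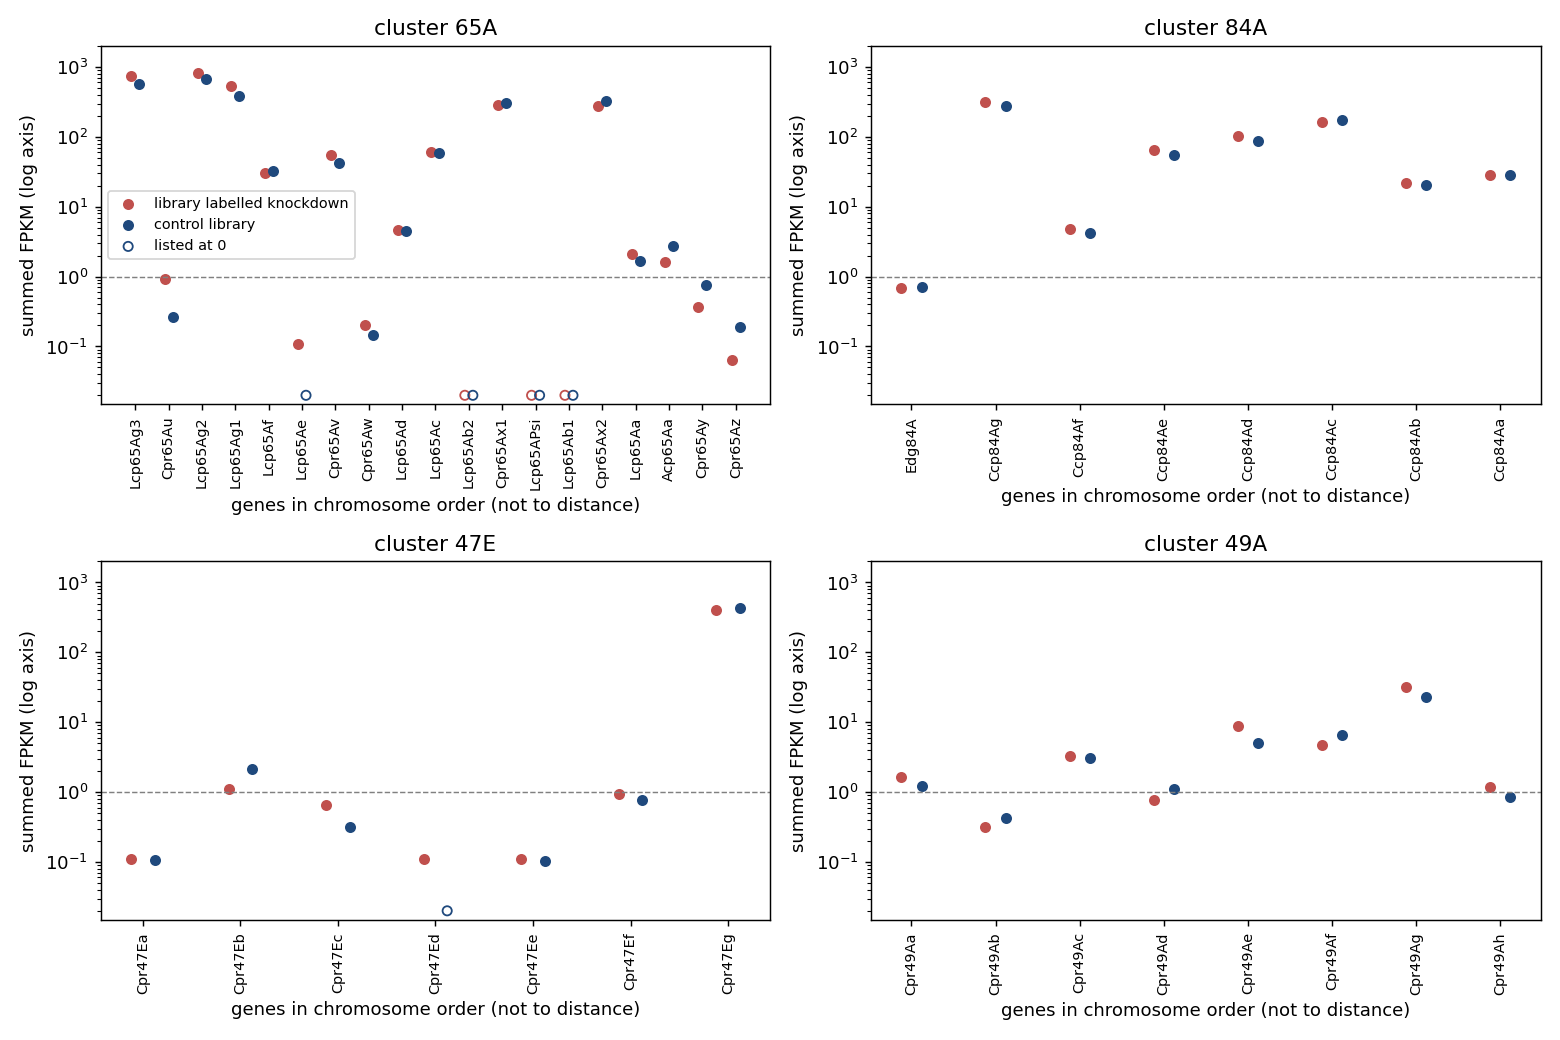
Summed FPKM (log axis) of the members of clusters 65A, 84A, 47E and 49A in chromosome order in the library labelled knockdown (red) and the control library (blue), with open symbols, drawn at 0.02, for values listed at 0 and a dashed line at 1 FPKM. In cluster 65A genes such as Lcp65Ag2 (824 and 668 FPKM) stand next to genes under 1 FPKM, and in cluster 47E only Cpr47Eg (410 and 432 FPKM) stands far above the other genes.

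The other clusters also mixed on and off genes. In cluster 49A (2R, 8 members) 5 genes were on, from Cpr49Ag at 31.9 and 23.0 FPKM to Cpr49Aa at 1.62 and 1.20 FPKM, and Cpr49Ab was the lowest at 0.312 and 0.421 FPKM. In cluster 64A (3L, 4 members) Cpr64Ad and Cpr64Ab (112 and 68.1 FPKM) were on, whereas Cpr64Ac (0.407 and 0.402 FPKM) and Cpr64Aa (0.176 and 0.235 FPKM) were off. In cluster 76B, Cpr76Bc at 4.80 and 3.25 FPKM was the highest and Cpr76Bd at 0.0162 and 0.0753 FPKM the lowest. In cluster 78C, Cpr78Cc was the highest, the ecdysone-dependent gene Edg78E was at 8.47 and 8.77 FPKM, and Cpr78Ca was off at 0.724 and 0.626 FPKM.

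Genes named for the pupal or adult cuticle or for ecdysone dependence were low, but not all were off. Pcp, the pupal cuticle gene that lies within the purine synthesis gene Gart, was at 0.174 and 0.247 FPKM, on about 4 fragments in each library. Edg91 was on at 5.46 and 5.80 FPKM and Edg78E at 8.47 and 8.77 FPKM, so 2 of the 3 Edg genes were on. Acp65Aa was on at 1.62 and 2.70 FPKM. Lcp9, named for the larval cuticle, was at 1.02 and 1.97 FPKM. Of the 11 genes named Lcp65A, 7 were on and 4 off, a share near the 58.3% of all genes in the files. Their sum was 2193 and 1718 FPKM, most of it from the Lcp65Ag genes.

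The 33 members called off were close to the limit of detection in most cases. Their median was 0.120 and 0.169 FPKM. Estimated fragments numbered under 5 for 19 and 20 of the 33. At the other end, Cpr47Ef at 0.939 and 0.764 FPKM rested on about 66 and 37 fragments over transcripts of up to 2198 nt, so an off call by FPKM is not the same as absence of RNA. Besides those already named, genes at 0.25 FPKM or less in both libraries included Cpr30B, Cpr30F, Cpr50Ca, Cpr62Ba, Cpr92A and all 3 genes of the 72E group, of which Cpr72Ea was listed at 0 in the control library.

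The on call was soft near 1 FPKM. Just above the threshold by mean stood Cpr49Ah at 1.18 and 0.847 FPKM, Lcp3, and Cpr11B at 0.793 and 1.70 FPKM. Just below it stood Cpr12A at 0.887 and 1.08 FPKM, Cpr5C at 0.817 and 1.13 FPKM, and Cpr49Ad at 0.768 and 1.13 FPKM. These 6 are also the members that crossed between the libraries, and 5 of them were on in the control library only, on 15 to 31 fragments there. On the X chromosome 3 of the 4 members fell in this zone, and Cpr11A alone was on, at 15.0 and 13.6 FPKM.

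By chromosome arm, 3L held 48 of the 100 members and 72.2% and 70.4% of the group's FPKM. The 28 members on 2R held 16.8% and 17.3%. On 3R, 12 of 14 members were on, beside 58.3% of all genes in the files. The 6 members on 2L comprised 3 on, with Cpr23B (24.9 and 25.5 FPKM) and Cpr31A (22.4 and 19.1 FPKM) the highest, and 3 off.

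Gene structure in the Release 6 annotation was shared by many members. The 97 protein-coding members had a median coding length of 477 nt, beside 1152 nt for 13417 protein-coding genes of the files, and 66 of them (68.0%) had exactly 2 coding exons, beside 22.1% of all. Of the 88 members with 2 or more coding exons, 60 (68.2%) had a first coding exon of 30 nt or less, so an intron follows soon after the start codon, beside 11.7% of all genes with 2 or more. In 43 of the members this exon was exactly 12 nt, the start codon and 3 more codons, a structure that 148 of the 13417 genes had in all.

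Cluster 65A departed from that pattern. Of its 18 protein-coding genes, 12 had a first coding exon of 100 to 150 nt, only Cpr65Ay and Acp65Aa had one of 30 nt or less, and 3 had a single coding exon. Its coding lengths were short, with a median of 315 nt, against 552 nt for members elsewhere. All 8 genes of cluster 84A had the exon of 12 nt. The 12 nt exon occurred in on and off genes: 32 of the 61 on members and 8 of the 30 protein-coding off members had it, and Cpr65Ea and Edg84A both did. Whether these shares differ was not tested, since members of a cluster are copies and not independent.

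**Figure D3:**
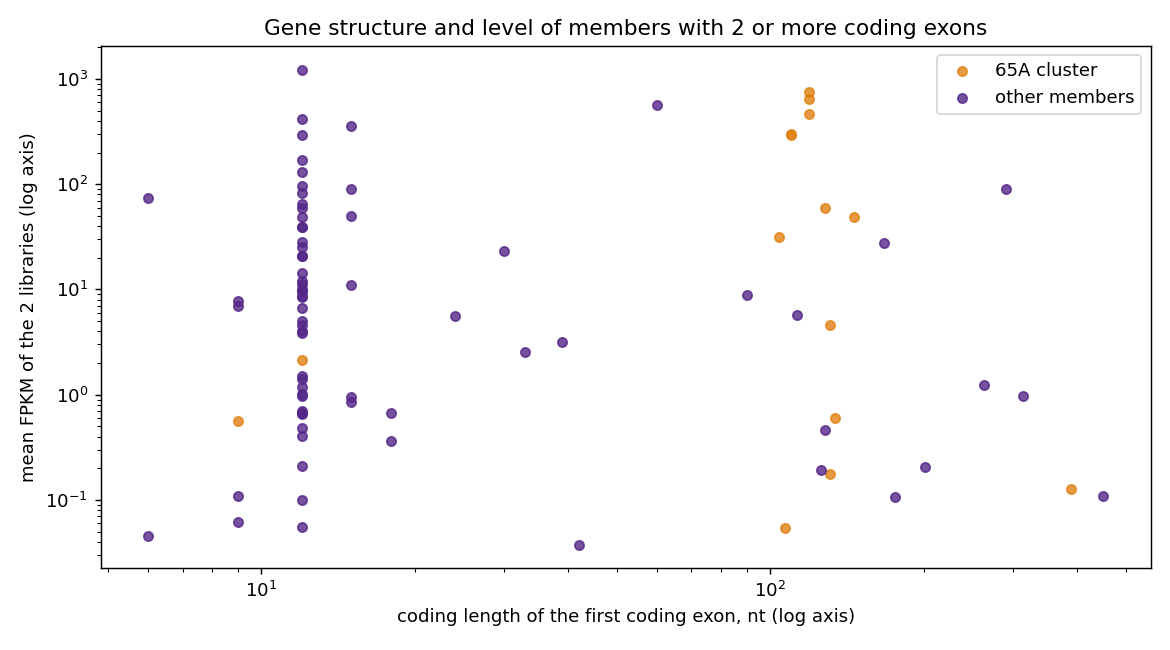
Mean FPKM of both libraries (log axis) against the coding length of the first coding exon in nt (log axis) for the 88 members with 2 or more coding exons, with cluster 65A in orange and all other members in purple. A column of 43 genes at 12 nt runs from a mean of 0.0548 FPKM (Cpr47Ed) to 1225 FPKM (Cpr65Ea), and 12 genes of cluster 65A lie between 100 and 150 nt together with 3 other members.

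Of the 23 members with several transcripts, 13 held at least 90% of their FPKM in 1 form in both libraries. Cpr65Ax2 was listed above 0 only for its transcript of 388 nt, with the 732 nt form at 0 in both libraries. In Edg78E the 546 nt transcript was at 7.26 and 8.40 FPKM and the 967 nt transcript at 1.21 and 0.365 FPKM. Cpr62Bc used both of its forms, at 37.5 and 27.4 FPKM for 1134 nt and at 18.5 and 15.7 FPKM for 1017 nt. In Cpr47Ef the form of 2165 nt was at 0.938 FPKM and 0.00194 FPKM and the form of 2198 nt at 0.000494 and 0.762 FPKM, so the gene's sum was similar while the split reversed. Transcript values are the software's division of shared fragments, which the files give without error.

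Between the libraries, no tested member passed 2-fold once 1 FPKM was added to both values, and on plain ratios Lcp3 and Cpr11B (2.14-fold lower, 1.22 to 4.01) did. The share of all tested genes past 2-fold on plain ratios is not given here. Each difference was computed as log2((knockdown + 1)/(control + 1)), a scale that understates changes of low genes, and a gene was tested at 1 FPKM or more in at least 1 library. Of 67 tested members, 0 passed 2-fold upward and 0 passed it downward, beside 1.02% and 1.37% of 10576 tested genes. With 1 library per group there is no p-value. The largest differences were 0.81 in Cpr78Cb (12.7 and 6.80 FPKM; ratio 1.86, 95% counting interval 1.57 to 2.21) and -0.92 in Lcp3 (3.63-fold lower, 1.66 to 10.2, on about 8 and 21 fragments).

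More members lay above 0 than below. Of the 67 tested members 47 (70.1%) were higher in the library labelled knockdown by any amount, beside 43.5% of all tested genes, and the median was 0.15 beside -0.04. Members of a cluster are copies and not independent, so these shares do not count separate observations. The difference went with level: members at 10 to 100 FPKM had a median of 0.22, beside -0.08 for all genes of that level, and members at 100 FPKM or more 0.26, beside -0.17. Members at 1 to 10 FPKM had a median of 0.09, beside 0.08. Among genes of 400 to 1000 nt at 10 FPKM or more the 23 members had a median of 0.26 and all 1201 genes a median of -0.21. Rescaling both libraries to an equal FPKM sum adds 0.28 to the log2 difference of well expressed genes, and 58 of the 67 members (86.6%) were then above 0, beside 78.5% of all tested genes. With the median ratio of well expressed genes set to 0, it was 50 of 67 (74.6%), beside 54.3%. The gap between the members' share above 0 and that of all genes was thus smaller with equal sums than as deposited. Rescaling moves members and other well expressed genes by about the same amount, so the smaller gap does not mean that their log2 differences became more alike.

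A smaller plain ratio was set after the values were seen. Among the 46 members that reached 5 FPKM in each library, 15 (32.6%) had a ratio of at least 1.25, beside 6.02% of such genes, and 1 (2.17%) a ratio of at most 0.8, beside 17.6%. The 15 included Cpr49Ae at 8.96 and 5.02 FPKM (1.78-fold, 1.45 to 2.20), Cpr64Ab (1.65-fold, 1.52 to 1.79), Cpr65Ea (1.45-fold, 1.42 to 1.48) and Cpr51A (1.43-fold, 1.39 to 1.47). The named copies Cpr67Fa1 (46.1 and 32.3 FPKM) and Cpr67Fa2 (56.4 and 40.4 FPKM) were both among them, as were Lcp65Ag1, Lcp65Ag3 and Cpr64Ad. The member below 0.8 was Lcp4. Named copies and members of a cluster are not independent, so the 15 are not as many separate observations. Intervals cover counting error only and not the spread between embryo collections.

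Neighbours did not all differ alike. In cluster 65A the 3 Lcp65Ag genes had log2 differences of 0.30 to 0.45, whereas Cpr65Ax1 and Cpr65Ax2 lay at -0.10 and -0.23 as deposited, and at 0.18 and 0.05 after rescaling to an equal sum. Both tested genes of cluster 64A were higher, and both of the Lcp1-Lcp4 cluster (Lcp3 and Lcp4) were lower, under all 3 scalings. In cluster 47E, Cpr47Eb was lower (-0.57), whereas Cpr47Eg was at -0.08 as deposited and at 0.20 with an equal sum. Over all members the summed FPKM had a ratio of 1.23, or 1.18 without Cpr65Ea and 1.49 with equal FPKM sums. The counting interval given for the 1.23, 1.22 to 1.24, rests on estimated fragments and not on summed FPKM.

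**Figure D4:**
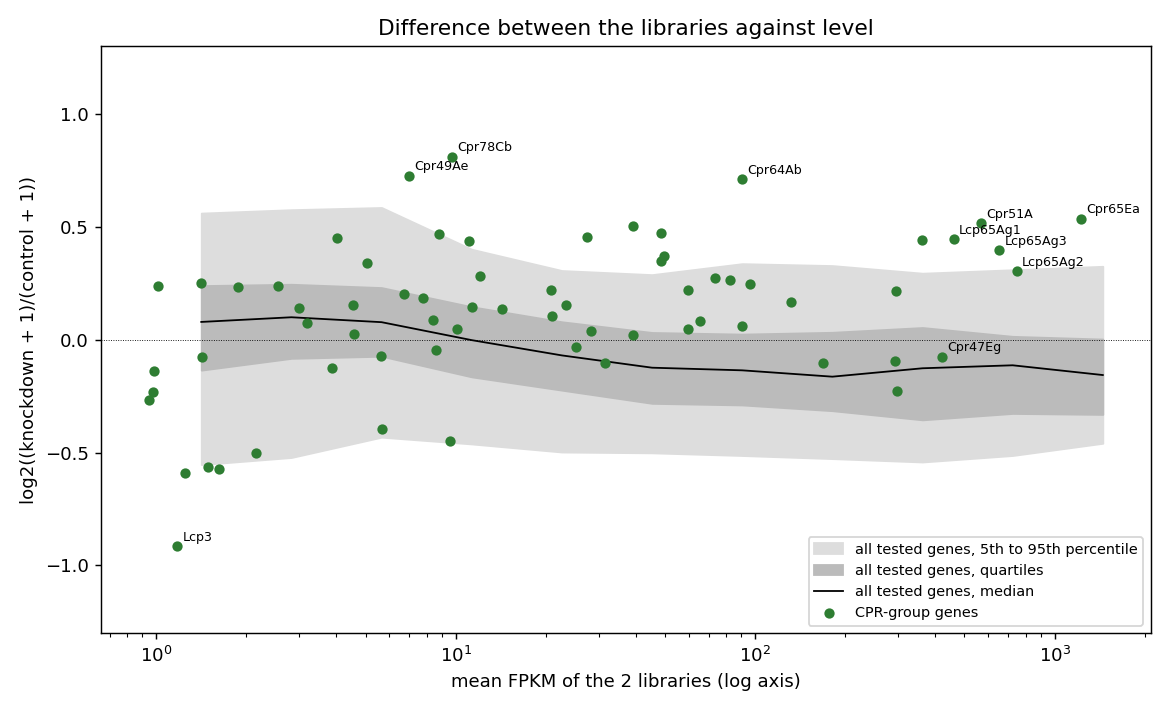
Log2 difference between the libraries against the mean FPKM of both (log axis) for the 67 tested members (green), over the median, quartiles and 5th to 95th percentiles of all tested genes in bins of level (line and grey bands). Members at 10 FPKM or more lie mostly above the median of all genes, and Lcp3 is the lowest point at -0.92.

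Most of the listed genes of the rest of the cuticle pathway were on in both libraries. The shares of all genes to set beside the list counts are 58.3% on (68.9% of protein-coding genes) and 43.5% above 0 as deposited, and the median of all tested genes was -0.04. Of 18 genes found of 20 in a list for chitin synthesis and assembly, 18 were on and 0 differed 2-fold with 1 FPKM added, with 16 above 0 and a median of 0.17. Among them kkv, the epidermal chitin synthase, was at 30.8 and 27.2 FPKM, verm, a chitin deacetylase, at 476 and 420 FPKM, and obst-A, a chitin-binding matrix protein, at 472 and 419 FPKM. Of 27 identifiers of the Tweedle family, cuticular proteins without the CPR consensus, 20 were on in both libraries. TwdlU was listed at 0 in both, but TwdlU-RC, by its name a transcript of TwdlU under its own identifier, was among the 20. The listed 0 therefore does not show that TwdlU was off. With 1 FPKM added, 0 of 21 tested differed 2-fold (14 above 0, median 0.10). TwdlF was at 1272 and 1299 FPKM and TwdlM at 752 and 574 FPKM. The Tweedle sum, 4451 and 4001 FPKM over 27 identifiers, was below that of the 100 members of the CPR group in both libraries. With such unequal numbers of genes, the sums do not compare the level per gene.

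The regulators were on as well. Of 15 transcription factor genes listed as cuticle regulators, not all of them epidermal, 15 were on and 0 differed 2-fold, with 13 above 0 and a median of 0.12. The highest were crc, at 453 and 426 FPKM, and usp, the partner of the ecdysone receptor, at 29.1 and 26.2 FPKM. The gene ftz-f1, which encodes FTZ-F1, the regulator of Edg84A in prepupae, was on at 25.2 and 22.4 FPKM, whereas Edg84A was called off. That value is a sum over 3 transcripts, which were not told apart here. It therefore does not show which form of FTZ-F1 was present. Of the late epidermal markers 4 of 5 were above 0, with a median of 0.14. They ran from -0.10 in Osi14 to 0.53 in neo, which was at 82.4 and 56.7 FPKM. Of the maternal markers 3 of 5 were above 0, with a median of 0.23. Of the early zygotic markers 2 of 5 were, with a median of -0.02. The part of these markers in the members' differences was not tested.

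Resilin and the crystallin gene listed as Cry, CPR genes outside the name rule, were off, with 0.237 and 0.249 FPKM for resilin and 0.206 and 0.0682 FPKM for Cry. The Vajk genes, which encode other cuticle components and are listed by CG symbols, were on, with CG16884 at 89.2 and 82.5 FPKM and CG30101 at 82.8 and 72.8 FPKM. All 4 Vajk genes were above 0, with a median of 0.20, and 0 differed 2-fold.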

How the data were processed

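The deposited values are FPKM per transcript in each library, as the authors computed them, per the file headers. TopHat 0.6 and Cuffdiff are named in the submitters' processing notes, and poly(A) selection, a directional kit and size selection on a gel in the labels' protocols. How strand was handled and which annotation was used is not stated in these sources. The files name no genome build; 13 of the 14 member starts on 3R lie 4174278 bases before those of Release 6, and members are placed by the files' own coordinates, with starts counted from 1. The file spans of cluster 64A and some other members are bundles of overlapping genes. Transcript FPKM was summed per gene identifier (365 transcript rows without an identifier were left out). Of the members, 16 overlap another annotated gene, whose fragments may be shared, as Cpr73D with Ogdh on the opposite strand.

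Fragments were estimated from FPKM times length, in which genes of 1 transcript and 1000 to 3000 nt pile up at 30.7 (library labelled knockdown) and 45.5 (control library) for 1 fragment. Ratios have exact binomial (Clopper-Pearson) 95% intervals from these. For genes with several transcripts and for sums over genes, such an interval need not be centred on the ratio of summed FPKM. There are 1 library per group, no p-values and no leave-one-out. The scripts used Python 3.11.15, pandas 2.3.3 and scipy 1.17.1. Only the value of 1 fragment and the 2-fold call were tested on simulated data, with genes of 1 transcript. Genes were named by rule: the highest 12, those past 2-fold, the 3 on either side of 1 FPKM, genes named for a stage, and the extremes of each cluster and list; further examples were chosen after the values were seen. The members and lists were chosen with earlier results of these data known. Sequence patterns of promoters and proteins were planned and are not analysed here.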

Additional observations from a re-analysis of the deposited data

How the results depend on the processing

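No tested member was past 2-fold with the pseudocount of 1 FPKM. With a pseudocount of 0.1 FPKM, 2 were, both lower in the library labelled knockdown: Lcp3 (-1.68) and Cpr11B (-1.01). With an equal FPKM sum 1 was, higher: Cpr78Cb (1.07). The shares of all tested genes past 2-fold under these settings are not given here, so neither count can be read as a trait of the members. The counts stayed at 0 with a pseudocount of 5, a filter at 5 FPKM, no filter, centring on the median ratio and the largest transcript per gene. The members' median log2 difference was 0.40 with an equal sum, and 0.07 to 0.22 under the other settings, never below 0. The summed ratio was 1.49 with an equal sum, 1.18 without Cpr65Ea, and, in settings added after seeing the data, 1.18 without members that overlap another gene and 1.25 without members named as copies. The number off was 52 with a threshold of 5 FPKM, and 25 and 42 with 0.5 and 2 FPKM. Taking the 1-fragment value from transcripts of 400 to 1000 nt, closer to the members' own lengths, lowered the median fragments per member from 92.8 to 69.0 in the library labelled knockdown, so intervals of short genes are somewhat too narrow; in the control library it went from 58.7 to 43.7. Depth limits what can be said of members under 1 FPKM, most of which rest on few fragments.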
